A study of Mus musculus with 18 samples.

Results

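The SLC25 family of mitochondrial carriers was described here, as the 48 genes whose symbol begins with Slc25a followed by a number, among 55153 genes in the RNA-seq table. Of these, 47 are protein-coding and 1, Slc25a5-ps, is a pseudogene. SLC25 carriers are small proteins of repeated membrane-spanning units that sit mostly in the inner mitochondrial membrane. They exchange nucleotides, phosphate, carboxylates, amino acids, cofactors and iron between the cytosol and the matrix, a membrane that these solutes do not cross without a carrier. In the developing cortex, they connect glycolysis, oxidative phosphorylation and the supply of citrate, aspartate and one-carbon units to dividing progenitors and young neurons.

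The cortex of E15.5 mice was examined with RNA-seq and ribosome profiling (Ribo-seq), which sequences the mRNA fragments protected by translating ribosomes, here called footprints. Each assay had 3 libraries of each of 3 genotypes, 18 libraries in all, labelled as strain C57BL/6. Ctrl animals were labelled wild type. F-cKO animals carried floxed Fto alleles (Fto f/f) and Emx1-Cre, and M-cKO animals carried floxed Mettl3 alleles (Mettl3 f/f) and Emx1-Cre. Beyond the label, the methods of the study place the floxed lines on a mixed background of C57BL/6 and another strain. They place the Emx1-Cre line on C57BL/6. Fto removes N6-methyladenosine from RNA and Mettl3 is the catalytic subunit of the enzyme that adds it. Per the study, Cre removes exon 3 of Fto or exons 2 and 3 of Mettl3, under a promoter it describes as limited to the cerebral cortex. As background, Emx1-Cre acts in the excitatory and glial lineage of the cortex, and cells of other origin in the same tissue, such as interneurons and vessels, are outside that lineage.

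The targeted genes were examined first. Fto RNA was at 10.8, 11.2 and 8.37 FPKM in Ctrl and at 3.26, 7.56 and 2.43 FPKM in F-cKO (fragments per kilobase of transcript, scaled to library size). Fto footprints were at 25.9, 22.0 and 17.6 RPKM in Ctrl and at 3.91, 2.11 and 4.04 RPKM in F-cKO, where RPKM is the matching scale for footprint reads. All F-cKO libraries lay below all Ctrl libraries for Fto in both assays. Mettl3 footprints were at 9.16, 9.25 and 9.93 RPKM in Ctrl and at 6.78, 6.02 and 6.40 RPKM in M-cKO, while Mettl3 RNA was at 5.84, 6.43 and 5.07 FPKM in Ctrl and at 8.61, 7.82 and 8.34 FPKM in M-cKO. The footprints thus followed the label and the RNA went against it, with values that cover the whole gene and not the deleted exons alone. M-cKO therefore means the libraries labelled M-cKO throughout. The study reports the same opposed directions for Mettl3 and thinks its knockout strategy might be the reason, which was not tested here. It also reports loss of the targeted exons by RT-PCR in M-cKO cortices of an earlier stage. Total counts were 18504094 to 22592406 per RNA-seq library and 10973699 to 35853227 per Ribo-seq library, the lowest being F-cKO replicate 2 of Ribo-seq. That library also stood apart in a list of 7 endothelial markers, with a summed level of 91.31 RPKM against at most 11.95 RPKM in each of the other 8 Ribo-seq libraries.

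Slc25a1 was called lower and Slc25a28 higher in M-cKO, each in both RNA and footprints, and the windows around their transcription starts are shown for that reason. Slc25a1 exports citrate, the source of cytosolic acetyl-CoA, and lies on chromosome 16 (17925211 to 17928219, mm10). Slc25a28 (mitoferrin 2) brings iron into the matrix and lies on chromosome 19 (43663801 to 43675006). The windows are RefSeq sequence of GRCm38.p6, the mm10 build, from 250 bases before to 50 bases after the start, on the minus strand, at chr16:17928170-17928469 and chr19:43674832-43675131. For Slc25a28 the start used lies inside the gene span given above, so part of the window before it lies in that span too. Capitals mark matches on either strand to the GC box GGGCGG, the CCAAT box CCAAT and the E-box CACGTG, none of which overlapped another.
Slc25a1: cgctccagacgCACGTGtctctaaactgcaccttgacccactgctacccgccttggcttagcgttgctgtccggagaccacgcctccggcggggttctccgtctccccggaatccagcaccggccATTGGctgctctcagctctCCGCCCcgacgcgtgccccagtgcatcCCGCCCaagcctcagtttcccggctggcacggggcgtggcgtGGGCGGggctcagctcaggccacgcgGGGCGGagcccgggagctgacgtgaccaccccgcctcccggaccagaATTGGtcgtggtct
Slc25a28: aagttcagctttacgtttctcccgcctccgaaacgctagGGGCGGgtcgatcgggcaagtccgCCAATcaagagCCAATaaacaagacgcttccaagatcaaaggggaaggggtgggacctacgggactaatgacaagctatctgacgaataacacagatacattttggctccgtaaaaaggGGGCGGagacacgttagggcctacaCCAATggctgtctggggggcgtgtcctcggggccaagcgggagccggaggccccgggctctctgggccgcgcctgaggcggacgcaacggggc
The Slc25a1 window held 4 GC boxes, 2 CCAAT boxes and 1 E-box, and the Slc25a28 window 2 GC boxes and 3 CCAAT boxes. GC boxes were found in 82.6% of 46 windows of 36 family members, against 46.2% of 21263 windows of protein-coding genes and 35.7% of all 32851 windows. The E-box was in 17.4% of the family windows and 7.15% of all windows, the CCAAT box in 47.8% and 37.4%, and the TATA box TATAAA in 4.35% and 13.6%. The palindromic core of the NRF1 site was in 0 family windows and in 0.971% of all windows. The median number of CpG pairs per window was 15 in the family and 7 in all windows. These are descriptions of letters in a window, with no test.

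In Ctrl cortices the family spanned from abundant housekeeping carriers to genes with almost no reads. Mean RNA levels were at least 50 FPKM for 2 members, between 10 and 50 FPKM for 15, between 1 and 10 FPKM for 18 and below 1 FPKM for 13. Slc25a4, the main ADP/ATP carrier of brain and muscle, had the highest RNA level at 235 ± 6.03 FPKM (SD, n = 3), followed by Slc25a5, its close relative in dividing cells, at 126 ± 8.82 FPKM. The phosphate carrier Slc25a3, which supplies ATP synthase, was at 49.9 ± 0.896 FPKM and the citrate carrier Slc25a1 at 42.5 ± 0.206 FPKM. These 3 adenine nucleotide and phosphate carriers, Slc25a3, Slc25a4 and Slc25a5, together made up 51.5% ± 0.320 of the family's summed FPKM (SD, n = 3). Next in order were the oxoglutarate carrier Slc25a11 (34.2 FPKM), the peroxisomal cofactor carrier Slc25a17 (30.8), the calcium-regulated ATP-Mg/phosphate carrier Slc25a23 (29.4) and the iron carrier Slc25a28 (26.3). Among these 8, only the neighbours Slc25a17 and Slc25a23 overlapped between their Ctrl libraries.

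Footprint levels followed RNA levels in broad order but not for each member. Slc25a4 led again at 471 ± 30.4 RPKM, then Slc25a3 at 74.5 ± 3.78, Slc25a17 at 56.4 ± 5.02, Slc25a11 at 49.9 ± 1.07, Slc25a1 at 49.0 ± 6.13, Slc25a5 at 25.5 ± 5.50, the aspartate/glutamate carrier Slc25a12 at 22.9 ± 1.06 and the glutamate carrier Slc25a22 at 16.2 ± 1.35 RPKM (SD, n = 3). In this order Slc25a11 and Slc25a1, and Slc25a5 and Slc25a12, overlapped between libraries. Over the 35 members with a Ctrl mean of at least 1 FPKM, log2 FPKM and log2 RPKM had a Pearson correlation of 0.849 and a Spearman correlation of 0.806, across genes of the same tissue and therefore given without a test.

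**Figure D1:**
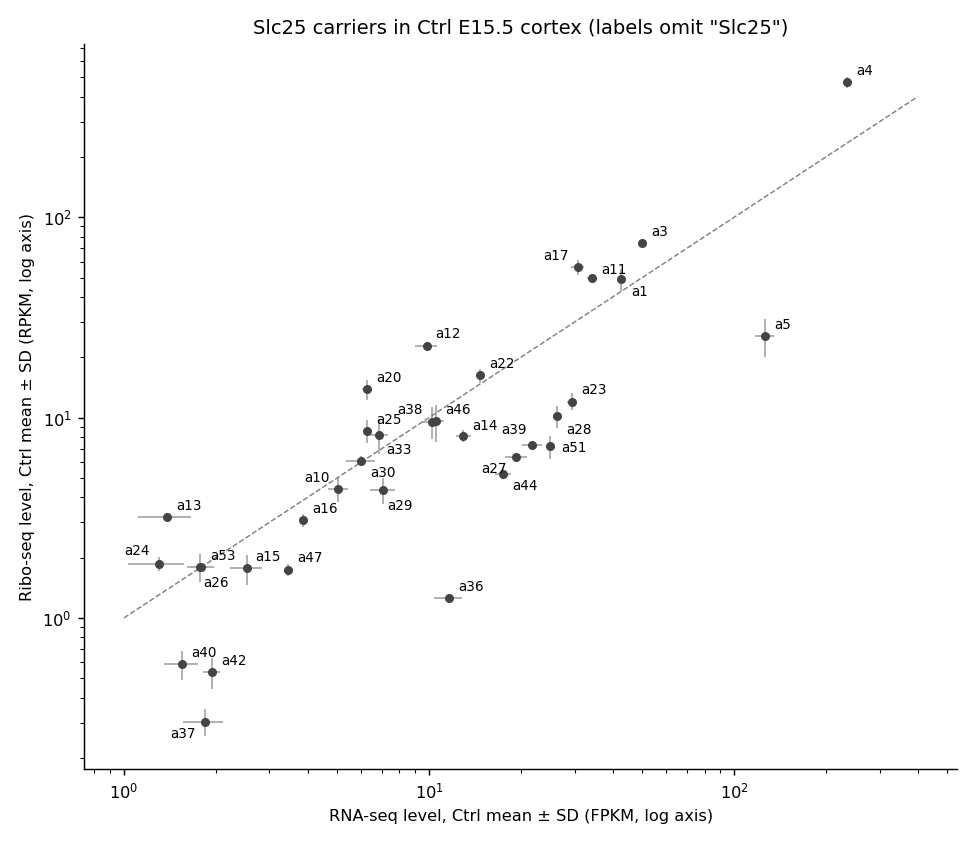
Mean Ctrl RNA-seq level (FPKM, log axis) against mean Ctrl Ribo-seq level (RPKM, log axis) of the Slc25 members at 1 FPKM or more reported here, with SD bars over 3 libraries and a dashed line where both levels are equal; labels omit the prefix Slc25. Slc25a4 is highest on both axes, and Slc25a5, Slc25a36 and Slc25a37 lie farthest below the dashed line.

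Translational efficiency (TE), the ratio of mean footprint RPKM to mean RNA FPKM, separated close relatives. In Ctrl the ratio was 2.00 for Slc25a4 and 0.202 for Slc25a5. Slc25a5 has near-identical copies in the genome and a pseudogene among the members, so its footprint and RNA values are uncertain. The aspartate/glutamate carriers Slc25a12 and Slc25a13 had the highest ratios of the 35 members, 2.33 and 2.30, followed by the carnitine/acylcarnitine carrier Slc25a20 at 2.20. The lowest ratios were those of Slc25a36 at 0.108, Slc25a37 at 0.165 and Slc25a5. Slc25a36 and Slc25a33 both carry pyrimidine nucleotides, and Slc25a33 had a ratio of 1.2, with less RNA (6.87 against 11.6 FPKM) and more footprints (8.22 against 1.26 RPKM). Both mitoferrins were low, Slc25a28 at 0.388 and Slc25a37 at 0.165, as were the glutathione carriers Slc25a39 at 0.334 and Slc25a40 at 0.379, and the NAD carrier Slc25a51 at 0.287. Among the uncoupling-protein-like carriers of the brain, Slc25a30 was at 1.02, Slc25a14 at 0.626 and Slc25a27 (UCP4) at 0.331. The ratio is divided by length in each assay, while footprints lie mostly in coding sequence, and no correction for the coding share of a transcript was made.

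The median ratio over all members with a value was 0.907 in Ctrl (47 members), 0.720 in F-cKO (46) and 0.718 in M-cKO (45), against 0.790, 0.850 and 0.944 over all genes. Among genes at 1 FPKM or more, the medians were 0.873, 0.718 and 0.718 over 35 members and 0.757, 0.789 and 0.738 over all genes, so in M-cKO the family lay near all genes at this level. Adding a pseudocount of 1 to both levels moved the family medians to 0.954, 0.872 and 0.806. The members with a value included genes with almost no RNA, such as Slc25a34 with a Ctrl ratio of 83.5. A median of ratios also does not give the change of a typical member. In the TE test further below, F-cKO differed from Ctrl by a median log2 of −0.100 over 37 members (all genes −0.011). For M-cKO against Ctrl the same median over 37 members came to −0.057 (all genes 0.019).

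**Figure D2:**
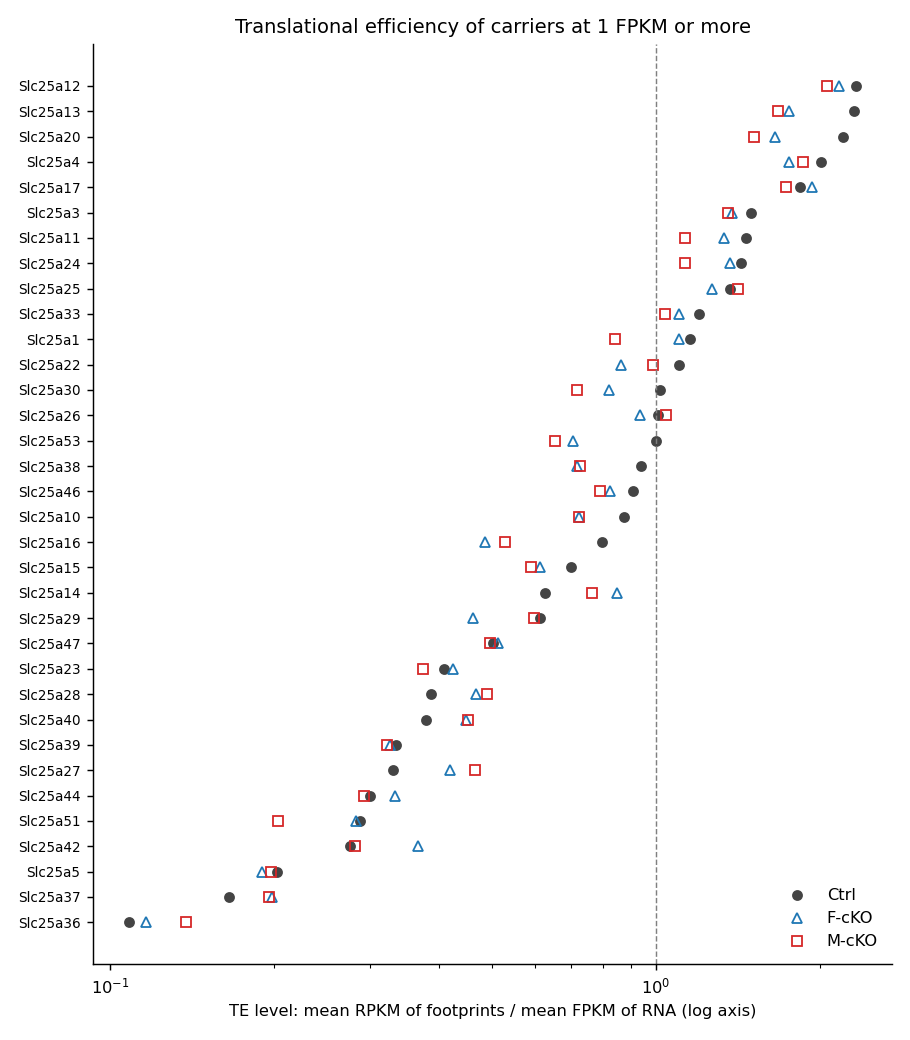
TE level (mean RPKM divided by mean FPKM, log axis) of each member at 1 FPKM or more reported here in Ctrl, F-cKO and M-cKO, ordered by the Ctrl value. Values range from 0.108 for Slc25a36 to 2.33 for Slc25a12 in Ctrl.

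Members at low levels are accounted for as follows. The filter on low counts kept 39 members in RNA-seq, 38 in Ribo-seq and 37 for TE, and a member that passed only through a group where it is high would be kept for that reason. Ribo-seq counts were blank for 10 members, Slc25a2, Slc25a21, Slc25a31, Slc25a35, Slc25a41, Slc25a43, Slc25a45, Slc25a48, Slc25a54 and the pseudogene Slc25a5-ps. In both assays, the testis ADP/ATP carrier Slc25a31, Slc25a21, Slc25a41, Slc25a48 and Slc25a54 stayed below 0.3 in every library on the FPKM and RPKM scales. Slc25a32, which carries folate and riboflavin-derived cofactors, had 5 to 45 RNA counts but 87 to 449 footprint counts per library, a Ctrl ratio of 10.2. Slc25a34, a carrier with no agreed substrate, had 2 to 11 RNA counts and 564 to 2953 footprint counts. Its Ctrl ratio was 83.5, against at most 2.33 for the members at 1 FPKM or more. Whether these reads are footprints of its own mRNA was not tested.

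The first comparison asked how carrier RNA differed between F-cKO and Ctrl. Among 39 members tested, 4 fell and 0 rose, where 9.57% of all genes tested were called lower and 11.5% higher. Called means an adjusted p below 0.05 with edgeR's quasi-likelihood test and Benjamini-Hochberg adjustment over all genes tested, as for every call that follows. The share of members called lower was near that of all genes. At an unadjusted p below 0.05, 5 members were higher (18.2% of all genes) and 6 lower (17.5%), and DESeq2 called 1 higher, Slc25a13. All 3 F-cKO libraries lay above all Ctrl libraries for 7 members (21.8% of all genes) and below for 6 (19.1%). The p-values measure the spread between these libraries, since the labels do not say that each came from a separate animal.

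Slc25a4 RNA was at 238, 229 and 240 FPKM in Ctrl and at 208, 207 and 182 FPKM in F-cKO. The groups did not overlap, and the log2 fold change was −0.25 (SE 0.066, adjusted p = 0.0247 with edgeR). Slc25a28 was at 25.6, 27.1 and 26.3 FPKM in Ctrl and at 21.7, 21.9 and 22.5 FPKM in F-cKO, again without overlap (log2 fold change −0.27, SE 0.069, adjusted p = 0.0246 with edgeR). Slc25a33, the pyrimidine nucleotide carrier, fell by 0.45 on the log2 scale (SE 0.13, adjusted p = 0.0359), from 6.46, 7.37 and 6.77 to 4.89, 5.78 and 4.49 FPKM. These 3 members thus had F-cKO libraries below every Ctrl library. With 1 library left out at a time, 0 to 3 members were called lower, and without Ctrl replicate 3 the number was 0. A replicate block across genotypes also left 0 members lower. Of 11 alternatives, the call was lost in 4 for Slc25a4, 6 for Slc25a28 and 6 for Slc25a33.

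The 35 members that were not called in F-cKO included some near the threshold. Slc25a13, the second aspartate/glutamate carrier, was at 1.62, 1.45 and 1.08 FPKM in Ctrl and at 2.01, 1.82 and 2.46 FPKM in F-cKO, a log2 difference of 0.58 (SE 0.19, adjusted p = 0.0552). Slc25a5 differed by 0.20 (95% interval 0.03 to 0.36, adjusted p = 0.0853), so that the ratio of Slc25a5 to Slc25a4 RNA was 0.561, 0.564 and 0.485 in Ctrl and 0.669, 0.678 and 0.866 in F-cKO. This RNA ratio did not overlap between the groups, while the footprint ratio did, at 0.0447, 0.0468 and 0.0730 in Ctrl and 0.134, 0.0717 and 0.0452 in F-cKO. The ratio was chosen after the values were seen and was not tested. The phosphate carrier Slc25a3 differed by 0.01 with a 95% interval of −0.11 to 0.13. The median log2 difference was −0.02 over the 39 members and −0.01 over all genes tested.

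The second comparison asked the same of M-cKO, where more members were called. Of 39 members, 9 rose and 4 fell, where 15.5% of all genes tested were called higher and 14.1% lower, so 33.3% of the members and 29.6% of all genes were called in either direction, a small difference that is no result about the family. With 1 library left out at a time, 4 to 9 members were called higher and 2 to 4 lower, and the lowest counts came without Ctrl replicate 3. Before adjustment, at p below 0.05, 13 members were higher (20.6% of all genes) and 5 lower (19.9%), and the M-cKO libraries lay entirely above Ctrl for 15 members (22.9% of all genes) and entirely below for 7 (21.4%). The median log2 difference was 0.12 over the members and −0.01 over all genes. These directions rest on RNA-seq libraries labelled M-cKO in which Mettl3 RNA was higher than in Ctrl, as the study also reports. In tissue measured in bulk, fewer cells of a type and less RNA per cell cannot be told apart, here or below.

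Carboxylate carriers moved in both directions. Slc25a1 RNA was at 42.3, 42.4 and 42.7 FPKM in Ctrl and at 34.7, 33.5 and 38.6 FPKM in M-cKO, a log2 fold change of −0.26 (SE 0.067, adjusted p = 0.0124 with edgeR). All M-cKO libraries lay below Ctrl. The dicarboxylate carrier Slc25a10 rose by 0.32 (SE 0.092, adjusted p = 0.0243), and the oxoglutarate carrier Slc25a11 by 0.18 (SE 0.062, adjusted p = 0.0454). All 3 members of this group that were tested were called, while the fourth, Slc25a21, was under the filter. With 29.6% of all genes called and groups this small, counts by group here and below are descriptions and no result about a group. The call of Slc25a11 was lost in 9 of 11 alternative analyses, and its gene overlaps Rnf167 in the RefSeq models.

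Among adenine nucleotide carriers, Slc25a4 was at 229, 233 and 229 FPKM in M-cKO, overlapping Ctrl, with a log2 difference of −0.04 (95% interval −0.16 to 0.08). Slc25a5 differed by 0.20 (95% interval 0.03 to 0.38, adjusted p = 0.0758), and DESeq2 called it. Among ATP-Mg/phosphate carriers, which adjust the matrix adenine nucleotide pool, Slc25a24 rose from 1.61, 1.21 and 1.09 FPKM to 2.04, 2.55 and 1.87 FPKM, the largest increase of a called member at 1.64-fold (log2 0.71, SE 0.19, adjusted p = 0.0159). Its relatives Slc25a23 (0.07) and Slc25a25 (0.16) did not pass.

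Of 6 tested members grouped here as carriers of basic, branched-chain and other amino acids or of acylcarnitine, 3 were called. The substrate of Slc25a47 is uncertain, so its place in this group is too. Slc25a29, a carrier of basic amino acids, rose from 6.90, 7.84 and 6.54 to 10.5, 9.25 and 10.8 FPKM (1.42-fold, log2 0.51, SE 0.10, adjusted p = 0.00323). Slc25a44, which carries branched-chain amino acids, rose from 18.7, 17.3 and 16.5 to 22.8, 21.9 and 23.1 FPKM (1.28-fold, log2 0.36, SE 0.065, adjusted p = 0.00199). Slc25a47 fell from 3.36, 3.41 and 3.60 to 2.58, 2.22 and 2.99 FPKM (log2 −0.42, SE 0.14, adjusted p = 0.0411), a call lost in 7 of 11 alternatives. Slc25a29 and Slc25a47 are neighbours on chromosome 12, with 13956 bases between them, and moved in opposite directions. Of the 4 aspartate and glutamate carriers, Slc25a13 rose (log2 0.54, SE 0.18, adjusted p = 0.0424), while Slc25a12 (0.09), Slc25a22 (0.03) and Slc25a18 (0.51, adjusted p = 0.112) did not pass.

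Of 9 nucleotide and cofactor carriers tested, 1 rose and 1 fell. Slc25a51, the NAD carrier, rose from 25.3, 25.2 and 24.3 to 32.1, 33.6 and 31.8 FPKM (1.29-fold, log2 0.37, SE 0.056, adjusted p = 0.00072), the smallest adjusted p of a member in this comparison. The M-cKO libraries were all above Ctrl, and F-cKO libraries at 25.9, 24.5 and 22.8 FPKM overlapped Ctrl. Slc25a36 fell by 0.31 (SE 0.084, adjusted p = 0.0161), from 10.9, 11.0 and 13.0 to 9.74, 9.89 and 8.61 FPKM. Its relative Slc25a33 did not pass in M-cKO (log2 difference 0.06, 95% interval −0.17 to 0.29).

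Of the iron and glutathione carriers, Slc25a28 rose from 25.6, 27.1 and 26.3 to 31.2, 33.2 and 32.9 FPKM (1.23-fold, log2 0.29, SE 0.069, adjusted p = 0.00856). Its relative Slc25a37 (mitoferrin 1), best known from red cell precursors, was at 2.17, 2.08 and 1.78 FPKM against 1.75, 2.15 and 1.61 FPKM in Ctrl, and did not pass. The summed level of 11 erythroid markers, mostly adult globins, was 488 to 891 FPKM in Ctrl and 500 to 740 FPKM in M-cKO, overlapping, while 2 of 10 tested rose, the embryonic globins Hbb-y (log2 3.26, adjusted p = 0.00707) and Hba-x (log2 1.78, adjusted p = 0.015). Of the uncoupling-protein-like carriers, Slc25a27 fell from 17.7, 19.3 and 20.9 to 14.5, 14.1 and 11.8 FPKM (log2 −0.53, SE 0.091, adjusted p = 0.00147), and Slc25a30 rose by 0.31 (SE 0.092, adjusted p = 0.0249). Slc25a14 differed by −0.23 (adjusted p = 0.0518). The glutathione carriers Slc25a39 (0.17, 95% interval −0.04 to 0.38) and Slc25a40 (−0.27, 95% interval −0.56 to 0.02) did not pass.

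Cell type markers moved in these libraries too, and their counts stand beside 29.6% of all genes called in M-cKO RNA and 21.1% in F-cKO RNA. Of 7 markers of the ganglionic eminence, the source of interneurons, 7 rose in M-cKO and 3 in F-cKO, with a summed level of 121 to 164 FPKM in M-cKO and 82.3 to 113 FPKM in F-cKO against 85.9 to 87.1 FPKM in Ctrl. Of 4 markers of intermediate progenitors, 3 rose in F-cKO (summed level 233 to 289 FPKM) while 2 rose in M-cKO (227 to 242 FPKM), both sums above the 131 to 206 FPKM of Ctrl. Of 6 radial glia markers, 2 rose and 2 fell in M-cKO, with a median log2 difference of 0.05, and 3 rose and 2 fell in F-cKO. The summed level of this list was 518 to 550 FPKM in M-cKO against 718 to 813 FPKM in Ctrl, a drop in which Fabp7 alone went from a mean of 594 to 306 FPKM. Of 7 markers of cortical projection neurons, 4 rose and 1 fell in M-cKO, and 3 rose and 1 fell in F-cKO. Of 6 meningeal markers, 2 fell in F-cKO and 0 were called in M-cKO with edgeR, with median log2 differences of −1.19 and 0.43. Among endothelial markers 2 of 7 fell in F-cKO and 1 of 7 in M-cKO. Their part in the carrier values was not tested. Slc25a27, Slc25a28, Slc25a29, Slc25a44 and Slc25a51 were called in M-cKO in every one of 11 alternative analyses, each library left out in turn included.

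**Figure D3:**
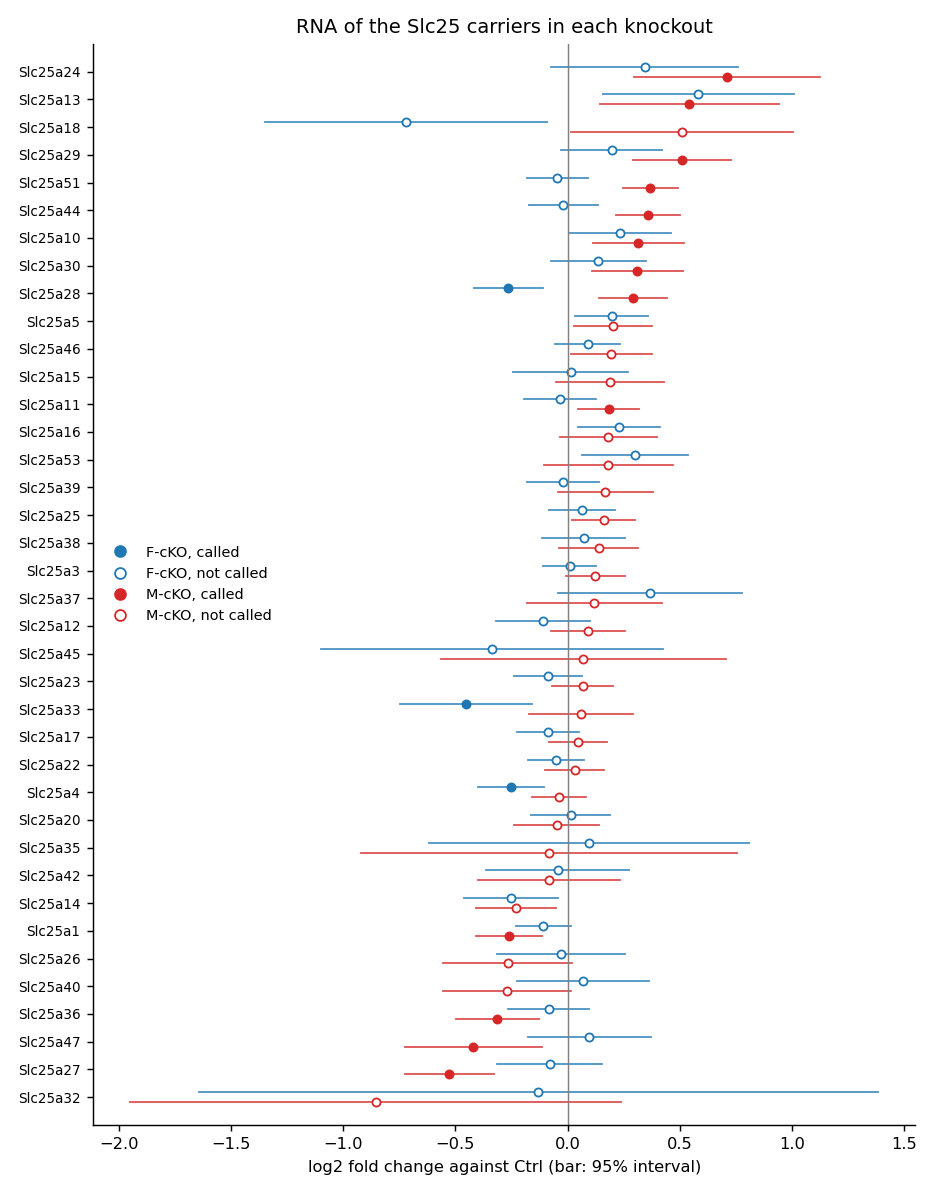
RNA-seq log2 fold change of the tested members reported here in F-cKO (blue) and M-cKO (red) against Ctrl, with 95% intervals; filled points were called. Slc25a27 (−0.53) is the lowest called value and Slc25a24 (0.71) the highest, both in M-cKO, and Slc25a28 is called in both knockouts on opposite sides of 0.

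The knockouts were then compared with each other, without Ctrl. M-cKO RNA was higher than F-cKO for 7 of 39 members and lower for 3, where 13.1% and 14.3% of all genes tested were called. At an unadjusted p below 0.05, 8 members were higher (19.4% of all genes) and 5 lower (20.6%), and the libraries did not overlap for 16 members higher in M-cKO (21.3% of all genes) and 6 lower (21.6%). Slc25a28 differed by 0.55 (SE 0.070, adjusted p = 0.000584), with 21.7 to 22.5 FPKM in F-cKO and 31.2 to 33.2 FPKM in M-cKO. Slc25a18, a glutamate carrier found mainly in astroglia, was at 0.661, 0.409 and 0.606 FPKM in F-cKO and at 1.11, 1.37 and 1.47 FPKM in M-cKO, the largest difference of the family at 2.33-fold (log2 1.22, SE 0.27, adjusted p = 0.00842). Its Ctrl libraries, at 0.981, 0.765 and 1.01 FPKM, lay between both groups. Slc25a33 (0.50), Slc25a51 (0.40), Slc25a44 (0.37), Slc25a29 (0.30) and Slc25a4 (0.20) were higher in M-cKO, and Slc25a47 (−0.53), Slc25a27 (−0.46) and Slc25a36 (−0.24) lower. The ratio of Slc25a33 to Slc25a36 RNA, chosen after the values were seen and not tested, was 0.473, 0.505 and 0.397 in F-cKO, 0.594, 0.671 and 0.520 in Ctrl, and 0.741, 0.703 and 0.863 in M-cKO. The 3 groups did not overlap in this RNA ratio, while the footprint ratio overlapped, at 1.98 to 8.33 in F-cKO, 5.18 to 8.26 in Ctrl and 4.27 to 7.32 in M-cKO.

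Footprints of the carriers were compared in the same way. In F-cKO, 0 of 38 members were called in either direction with edgeR, and 0% of all 14335 genes tested were called higher or lower. In simulated counts for this comparison the fit called 4 of 100 changes of 2-fold, against 64 in M-cKO footprints and 93 in F-cKO RNA. The 0 calls therefore do not show that footprints stayed the same. Before adjustment, at p below 0.05, 0 members were found, with 1.58% of all genes higher and 0.635% lower, and DESeq2 called 0 members. The F-cKO libraries lay entirely above Ctrl for 1 member (3.66% of all genes) and entirely below for 2 (4.21%). Intervals were wide: for Slc25a4, at 487, 490 and 436 RPKM in Ctrl and 325, 260 and 464 RPKM in F-cKO, the 95% interval ran from −0.89 to 0.09 on the log2 scale. F-cKO replicate 2, the shallow library with high endothelial markers, held the lowest Slc25a4 value and the highest of Slc25a27 and Slc25a34. Without it, 0 members were called.

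In M-cKO, footprints of 2 members rose and those of 3 fell among 38 tested, where 7.13% of all genes were called higher and 7.5% lower, so the member count was near the background. The rises were those of Slc25a28 and of Slc25a34, a gene with almost no RNA. At an unadjusted p below 0.05, 5 members were higher (16.6% of all genes) and 5 lower (17.5%), and the libraries lay entirely above Ctrl for 7 members (19.9% of all genes) and entirely below for 8 (19%). DESeq2 called 3 members higher, with Slc25a29 added, and 3 lower. In the same Ribo-seq libraries 3 of 7 ganglionic eminence markers rose (summed level 62.6 to 120 RPKM against 38.2 to 57.1 RPKM in Ctrl), 1 of 6 radial glia markers rose and 1 fell (970 to 1376 RPKM against 1825 to 2072 RPKM), and 5 tested meningeal markers had a median log2 difference of −1.08, their part in the carrier footprints not being tested. Slc25a1 footprints were at 56.1, 45.3 and 45.6 RPKM in Ctrl and at 29.3, 29.3 and 31.3 RPKM in M-cKO. The groups were well apart, with a 0.616-fold level in M-cKO (log2 −0.70, SE 0.11, adjusted p = 0.0124 with edgeR). RNA of the same gene stood at 0.834-fold, and the difference between both assays, tested as TE, was −0.37 (95% interval −0.65 to −0.08, adjusted p = 0.132). Slc25a28 footprints were at 10.7, 11.2 and 8.75 RPKM in Ctrl and at 16.0, 12.9 and 18.8 RPKM in M-cKO, a 1.57-fold rise (log2 0.65, SE 0.16, adjusted p = 0.0357). Its TE difference was 0.43 (95% interval 0.08 to 0.78, adjusted p = 0.153).

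For Slc25a20, which carries acylcarnitines into the matrix, the footprints were called and the RNA was not. Slc25a20 footprints were at 15.3, 14.0 and 12.1 RPKM in Ctrl and at 9.37, 8.47 and 9.87 RPKM in M-cKO (log2 −0.57, SE 0.11, adjusted p = 0.0209). All M-cKO libraries lay below Ctrl. The RNA difference was −0.05 (95% interval −0.24 to 0.14), and the TE difference was −0.45 (adjusted p = 0.0893), not past the threshold.

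Slc25a34 footprints were at 7.10, 11.2 and 9.86 RPKM in Ctrl and at 24.9, 65.2 and 25.8 RPKM in M-cKO, a log2 fold change of 2.08 (SE 0.42, adjusted p = 0.0222). F-cKO libraries were at 13.9, 110 and 8.48 RPKM and overlapped Ctrl. The highest values of each knockout were those of replicate 2, the libraries with the lowest totals of the assay, 10973699 and 13764136 counts, and the part of depth was not tested. Without M-cKO replicate 2 the log2 fold change was 1.44 (adjusted p = 0.0124). With at most 11 RNA counts per library, no RNA change of this gene could be measured, and whether the reads are footprints of its own mRNA was not tested.

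Several RNA changes had no called counterpart in footprints. Slc25a51 footprints were at 6.30, 7.01 and 8.20 RPKM in Ctrl and at 6.41, 5.78 and 7.58 RPKM in M-cKO, overlapping (log2 −0.11, 95% interval −0.43 to 0.21). Slc25a27 footprints were at 6.33, 6.54 and 6.28 RPKM in Ctrl and at 6.74, 6.30 and 5.79 RPKM in M-cKO (log2 −0.01, 95% interval −0.27 to 0.25). Slc25a29 (0.49, adjusted p = 0.0677) and Slc25a44 (0.34, adjusted p = 0.0932) lay above Ctrl in all 3 M-cKO libraries without passing the test. Of the 5 footprint calls, each was lost in at least 2 of 12 alternatives, and all were lost when the 9 Ribo-seq libraries shared one estimate of the spread.

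**Figure D4:**
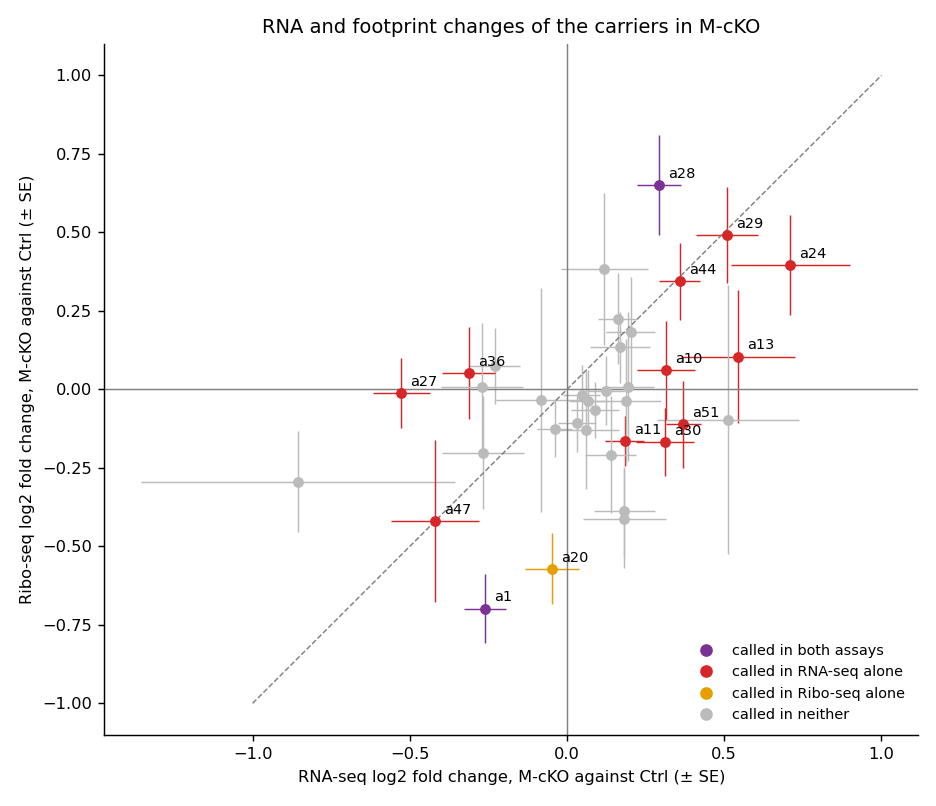
RNA-seq against Ribo-seq log2 fold change in M-cKO for the members tested in both assays and reported here, with SE bars, coloured by the assay in which they were called; the dashed line marks equal changes and labels omit the prefix Slc25. Slc25a1 (lower left) and Slc25a28 (upper right) are called in both assays, and Slc25a27 and Slc25a51 lie near 0 on the footprint axis; Slc25a34, not testable in RNA, is not drawn.

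M-cKO and F-cKO footprints did not differ past the threshold for any of 38 members with edgeR, where 0% of all genes were called in either direction. In simulated counts for this comparison the fit called 2 of 100 changes of 2-fold, so the 0 calls do not show equal footprints. Before adjustment, at p below 0.05, 0 members were found, with 4.98% of all genes higher and 3.11% lower, and DESeq2 called 0 members. The libraries did not overlap for 3 members higher in M-cKO (9.18% of all genes) and 1 lower (6.86%).

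TE was then tested as the interaction of assay and genotype over both kinds of library. In simulated counts the TE fit called 15 of 100 changes of 2-fold in F-cKO, 65 in M-cKO, and 10 between M-cKO and F-cKO. In F-cKO, 0 of 37 members were called with edgeR, and 0% of all genes were called higher or lower. At an unadjusted p below 0.05, 1 member was higher and 2 were lower, with 3.11% and 6.18% of all genes, and DESeq2 called 0 members. In M-cKO, 1 of 37 members was called higher and 0 lower, where 1.89% of all genes were called higher and 1.18% lower. The member was Slc25a27, with a log2 TE difference of 0.58 (SE 0.15, adjusted p = 0.0469), RNA lower in all M-cKO libraries and footprints at Ctrl level. Same-numbered RNA-seq and Ribo-seq libraries deviated together in Ctrl and M-cKO, and with each such pair as a block, an analysis added after the data were seen, the difference was 0.58 (adjusted p = 0.0408 with edgeR), while a block of the number across genotypes gave 0.59 (adjusted p = 0.0586). The adjusted p lay above 0.05 in 16 of 20 alternatives, with a highest value of 0.555. Before adjustment, at p below 0.05, 4 members were higher (12.3% of all genes) and 8 lower (9.21%). DESeq2 called 4 members lower, among them Slc25a1, Slc25a20 and Slc25a51. Between M-cKO and F-cKO, 0 of 37 members were called with edgeR against 0% of all genes, with 0 higher (2.44% of all genes) and 2 lower (1.67%) at an unadjusted p below 0.05 and 0 by DESeq2.

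**Figure D5:**
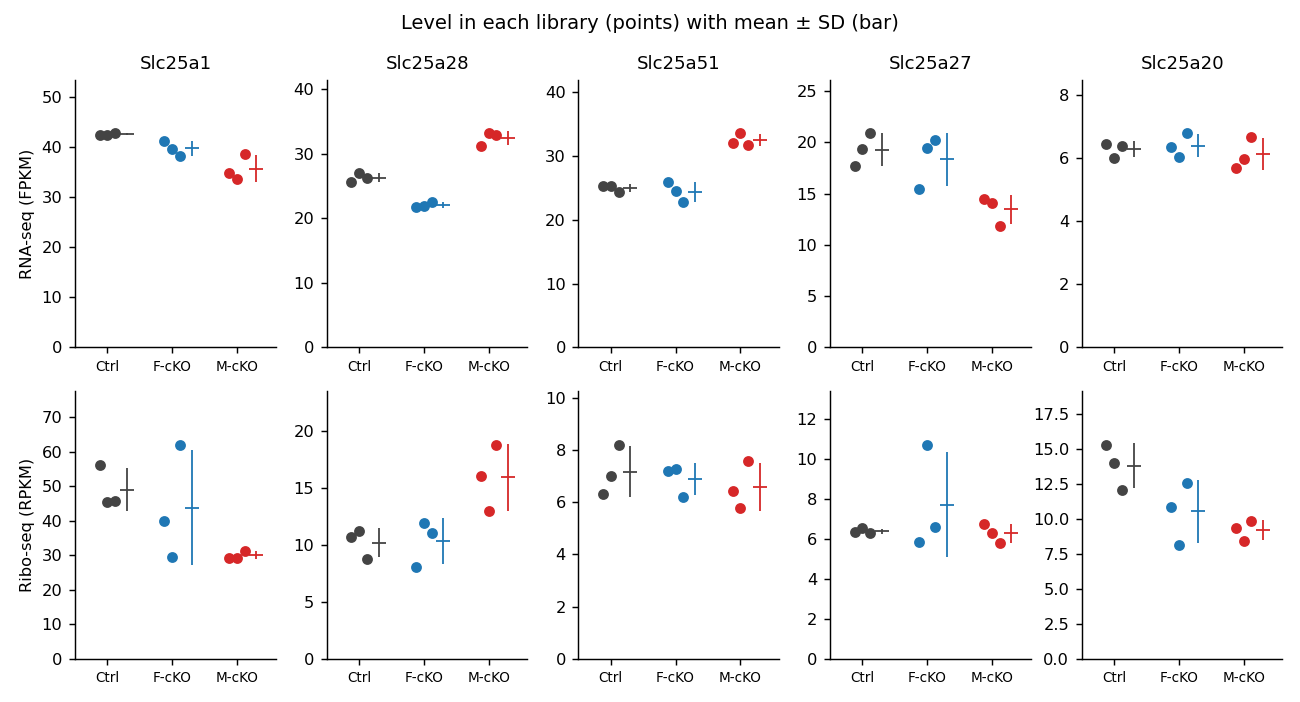
Level of 5 members in each library, with RNA-seq (FPKM) in the upper row and Ribo-seq (RPKM) in the lower row; points are the 3 libraries of each genotype and bars the mean ± SD, with axes from 0. Slc25a1 is lower and Slc25a28 higher in M-cKO in both assays, Slc25a51 and Slc25a27 separate in RNA-seq alone, and Slc25a20 separates from Ctrl in M-cKO in Ribo-seq.

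Genes that work beside the carriers were counted from lists of other mitochondrial genes, to be read against the shares of all genes called, which were 15.5% higher and 14.1% lower in M-cKO RNA, 11.5% and 9.57% in F-cKO RNA, and 7.13% and 7.5% in M-cKO footprints. With lists this short, several counts lay near those shares. Of 13 tested genes that import carrier proteins through the TOM and TIM22 routes, 4 rose in M-cKO RNA, among them Timm8a1 (0.80, adjusted p = 0.000466), Timm29 (0.27) and Timm13 (0.25). In F-cKO RNA 3 fell, Timm10 (−0.47, adjusted p = 0.0119), Timm13 (−0.30) and Tomm22 (−0.19). In footprints of M-cKO 1 rose, Timm29 (0.64, adjusted p = 0.0199), and 1 fell, the receptor subunit Tomm22 (−0.73, adjusted p = 0.0408). Of 18 other inner membrane transporters, 2 rose in M-cKO RNA, among them Sfxn1 (0.44), and 4 fell, among them Sfxn5 (−0.26). Both subunits of the mitochondrial pyruvate carrier were lower there, Mpc1 at −0.40 (adjusted p = 0.0273) and Mpc2 at −0.30 (adjusted p = 0.00609), and Mpc2 footprints fell by 0.59 (adjusted p = 0.0185). Mpc1 footprints had means of 4.53 RPKM in Ctrl and 4.94 RPKM in M-cKO and were not called. In F-cKO, 1 of these 18 rose and 1 fell, Mpc2 (−0.32, adjusted p = 0.00872). Of the 3 outer membrane porins, Vdac3 RNA fell in M-cKO (−0.31, adjusted p = 0.00719) and Vdac2 footprints did (−0.48, adjusted p = 0.0321). Of 4 tested carrier-family genes under other symbols, Mtch2 RNA rose in F-cKO (0.30, adjusted p = 0.027) while in M-cKO 0 were called in RNA and Mtch2 footprints fell by 0.52 (adjusted p = 0.044).

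In all, 14 members overlap another gene in the RefSeq models, among them Slc25a12, Slc25a25, Slc25a26 and Slc25a44, and whether counting used strand is not given in the sources used here.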

How the data were processed

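RNA-seq and Ribo-seq were analysed in 18 libraries of E15.5 cortex, with 3 libraries per genotype and assay, grouped by their labels. The authors deposited raw read counts per gene for both assays, FPKM values for RNA-seq and RPKM values for Ribo-seq, and the submitters' processing notes name build mm10 and DESeq2 1.14.1. Per the methods of the study, RNA-seq reads were mapped with HISAT2 2.0.5, and Ribo-seq reads with TopHat2, with HTSeq for the gene level and RPKM computed from it. Whether counting used strand is not given in the sources used here. FPKM and RPKM served for levels only, and counts for every test.

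Symbols were found for 54723 of 55153 identifiers. The Ribo-seq count table listed 54838 genes, of which 40490 were blank in 8 libraries and 14348 were used. The number of sample columns left unused was 0. Counts were tested in R 4.3.3 with the edgeR 4.0.16 quasi-likelihood test (limma 3.58.1), TMM scaling, a filter on low counts (minimum count 10, total 15) and Benjamini-Hochberg adjustment over all genes tested. Each comparison used its own 6 libraries. TE was tested as the assay by genotype interaction over 12 libraries, with the filter passed in each assay. The scripts were tested on simulated data. DESeq2 1.42.0, RLE scaling, no filter, all libraries in a single fit, protein-coding genes alone, TMM within assay, a replicate block (across genotypes and, for TE and added later, within genotype, because same-numbered RNA-seq and Ribo-seq libraries correlated above 0.1 in each pair of Ctrl and M-cKO), pseudocounts of 0.1 and 1 for TE levels and leaving out each library were tried as alternatives. With 3 against 3 libraries an exact permutation test cannot go below p = 0.1, so none was run on single genes.

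Members named with values were the 8 highest in Ctrl in each assay, every member called against Ctrl, the near relatives in each carrier group, and up to 3 called genes per direction in each list of other genes. The members and lists were chosen with earlier results of these data known. Values of some genes of the family and lists are not reported here, and counts include them.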

Additional observations from a re-analysis of the deposited data

Results flagged for a closer look

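RNA of 10 members differed between M-cKO and F-cKO in a direct test of both knockouts (edgeR, adjusted p below 0.05). The log2 differences were 1.22 for Slc25a18, 0.55 for Slc25a28, 0.50 for Slc25a33, 0.40 for Slc25a51, 0.37 for Slc25a44, 0.30 for Slc25a29 and 0.20 for Slc25a4, all higher in M-cKO. They were −0.53 for Slc25a47, −0.46 for Slc25a27 and −0.24 for Slc25a36. Slc25a18, Slc25a28, Slc25a33, Slc25a44 and Slc25a51 were called in each of the 11 alternatives, while the call of Slc25a36 was lost in 7, Slc25a4 in 6, Slc25a29 in 5, Slc25a47 in 4 and Slc25a27 in 2.

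Slc25a27 was marked because its RNA and footprint changes in M-cKO differed by 0.58 on the log2 scale in the interaction test.

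Slc25a43, whose Ribo-seq counts were blank and which entered no test, had a mean footprint level of 0.269 RPKM in M-cKO, with libraries at 0.136, 0.463 and 0.208 RPKM against 0.113, 0.0446 and 0.0448 RPKM in Ctrl. All values are low.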

How the results depend on the processing

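The member calls were each refitted under every alternative. Of 204 such refits with 1 library left out, 114 stayed past the threshold, 90 lost the call and 0 changed direction, and of 173 refits under the other alternatives, 149 stayed, 24 lost the call and 0 changed direction. In F-cKO RNA, members called higher numbered 1 with DESeq2, 2 with no filter on low counts and 1 with all 9 libraries in a single fit, against 0. In M-cKO footprints, all 9 libraries in a single fit gave 0 higher and 0 lower. For TE in M-cKO, RLE scaling, no filter, all 18 libraries in a single fit and TMM within each assay each gave 0 higher, and DESeq2 gave 4 lower. The median TE level in F-cKO was 0.825 with a pseudocount of 0.1 and 0.872 with 1, and in M-cKO 0.806 with 1. Leaving out 1 library gave 0 to 1 higher and 0 to 3 lower in F-cKO RNA, 4 to 9 higher and 2 to 4 lower in M-cKO RNA, 0 to 4 lower in M-cKO against F-cKO RNA, 0 to 2 higher and 0 to 3 lower in M-cKO footprints, and 0 to 1 higher and 0 to 3 lower in M-cKO TE. The lowest RNA counts against Ctrl came without Ctrl replicate 3, the 0 in M-cKO against F-cKO without F-cKO replicate 2, and footprints had 0 calls in both directions without Ctrl replicate 2. The cause was not tested.

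Within an assay, same-numbered libraries of different genotypes did not deviate together in every pair (correlations of −0.144 to −0.020 for RNA in F-cKO and Ctrl, −0.080 to 0.163 in M-cKO and Ctrl, and −0.278 to 0.147 and −0.025 to 0.140 for footprints), so the numbers were not taken to pair genotypes. Between the assays, same-numbered libraries correlated at 0.110 to 0.265 in Ctrl and 0.103 to 0.328 in M-cKO, each highest with its own number, and at −0.276 to −0.019 in F-cKO. With the replicate number as a block within genotype, chosen after seeing the data, M-cKO TE had 1 member higher and 0 lower, and the other TE comparisons had 0. With the number as a block across genotypes, F-cKO RNA had 0 members lower (adjusted p = 0.0575 to 0.0627 with edgeR for Slc25a4, Slc25a28 and Slc25a33), M-cKO footprints had 1 higher and 3 lower, M-cKO TE had 0 higher, and M-cKO RNA had 8 higher and 4 lower. Ribo-seq replicates 2 of both knockouts had the lowest totals of the assay, and the part of depth in the spread of footprint values was not tested.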
